A study of Mus musculus with 4 samples.

Results

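The 88 genes described here are named as proteins of the cytoplasmic ribosome and were followed in cardiac progenitor cells (CPCs) with and without a knockdown of Baf60c. They were taken from the deposited transcript table by their names alone, as every symbol that starts with Rpl or Rps and a digit, together with Rplp0, Rplp1, Rplp2 and Rpsa. Names of ribosomal protein kinases (10) and of processed pseudogenes ending in -ps (6) were left out. Where a symbol had several transcripts, as 16 of them did, the transcript with most reads was kept. This gave 88 genes among 20701 gene symbols, 54 with a large-subunit name and 34 with a small-subunit name. Of these 88, Rps19bp1 and Rpl7l1 carry such a name but encode a protein that binds Rps19 and an assembly factor related to Rpl7.

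Each ribosome holds a single copy of nearly all of these proteins, arranged on the ribosomal RNAs of a large and a small subunit. Their mRNAs are among the most abundant of growing cells, and most begin with a run of pyrimidines, the terminal oligopyrimidine (TOP) motif, through which the kinase mTOR controls their translation. Mammalian genomes also hold very many processed pseudogenes of these genes, and a few expressed copies with a tissue-restricted pattern, such as Rpl3l in heart and skeletal muscle and Rpl10l and Rpl39l in testis.

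The cells were day 5 CPCs, measured by RNA-seq in 4 libraries and differentiated from mouse E14 Tg(Nkx2-5-EmGFP) embryonic stem cells (ESCs) and sorted for Nkx2.5-GFP. Control cells (2 libraries) carried the pLKO vector, and Baf60c KD cells (2 libraries) a short hairpin RNA against Baf60c, the heart-enriched SWI/SNF chromatin remodelling subunit encoded by Smarcd3. Both groups share the reporter, viral transduction with puromycin selection and maintenance of the ESCs on mitomycin-treated mouse embryonic fibroblasts. They also share the directed differentiation protocol, in which the ESCs were first grown on gelatin. The labels describe the libraries of a group as different pools, and which hairpin they carry was not stated. With no further word on separate cultures, the p-values reflect variation among these 4 libraries alone, part of which may be technical.

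Values are RPKM, reads scaled to transcript length and to the total of each library. These totals, 22064092 to 30398452 reads, sum over 31507 transcript rows, where transcripts of a gene can count the same reads. The kept transcripts held 12623031 to 17649363 reads. Smarcd3 stood at 173.9 and 166.8 RPKM in control and at 46.4 and 46.3 RPKM after knockdown (log2 fold change −1.85 ± 0.03 SE, limma adjusted p = 2.90e-10). It was thus lower in both libraries labelled Baf60c KD. Markers fixed as a list showed a change in the sorted cells as well. The summed level of 8 cardiac markers was 2862 and 2812 RPKM in control and 1166 and 1182 RPKM in Baf60c KD, with 7 of the 8 lower and 1 higher. The sum of 7 fibroblast and feeder markers was 12.7 and 13.3 against 34.0 and 33.7 RPKM, with 4 of 4 tested higher, and that of 7 blood markers was 4.50 and 5.08 against 18.6 and 19.8 RPKM, with Ptprc listed at 0 in all libraries. The 8 endothelial markers summed to 38.6 and 36.8 against 59.2 and 61.4 RPKM, with 4 higher and 3 lower of 7 tested. The sum of 8 pluripotency markers was 11.3 and 10.8 against 4.95 and 5.42 RPKM, with 2 of 2 tested lower and Dppa3 at 0. The neural markers (2.55 and 2.59 against 1.21 and 1.53 RPKM, Olig2 and Neurod1 at 0) and endoderm markers (3.27 and 3.06 against 2.71 and 2.80 RPKM, Cer1 at 0) each had 1 tested gene, which was lower. The part of these shifts in the results below was not tested, and in bulk RNA fewer cells of a type and less RNA per cell cannot be told apart.

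The 88 genes did not sit at one level. Their mean levels over the 4 libraries ran from 0 to 1038 RPKM, with 21 genes over 100 RPKM, 26 from 10 to 100 RPKM and 41 below 10 RPKM, of which 14 were below 1 RPKM. Rpl8, a core protein of the large subunit, stood highest at 1078, 1024, 1034 and 1017 RPKM in control 1 and 2 and Baf60c KD 1 and 2. Rpl4, which lines the tunnel through which the nascent chain leaves, followed at 1027, 1038, 990 and 990 RPKM. The control and Baf60c KD libraries overlapped for Rpl8 and did not for Rpl4, and the ranges of both genes over the 4 libraries overlapped each other. Other highly read genes were Rplp1 of the large-subunit stalk (mean 575 RPKM), Rps15 (449.6 RPKM) and Rps9 (421 RPKM), and the ranges of these 3 over the libraries did not overlap. At the other end, Rps6, the substrate of the S6 kinases, had 2.95, 4.44, 3.84 and 3.25 RPKM, and Rpl19 had 0.694, 0.366, 0.651 and 0.752 RPKM (12, 6, 11 and 17 reads). The 10 highest genes took 65.3% to 65.6% of all reads on the 88 genes in each library.

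**Figure D1:**
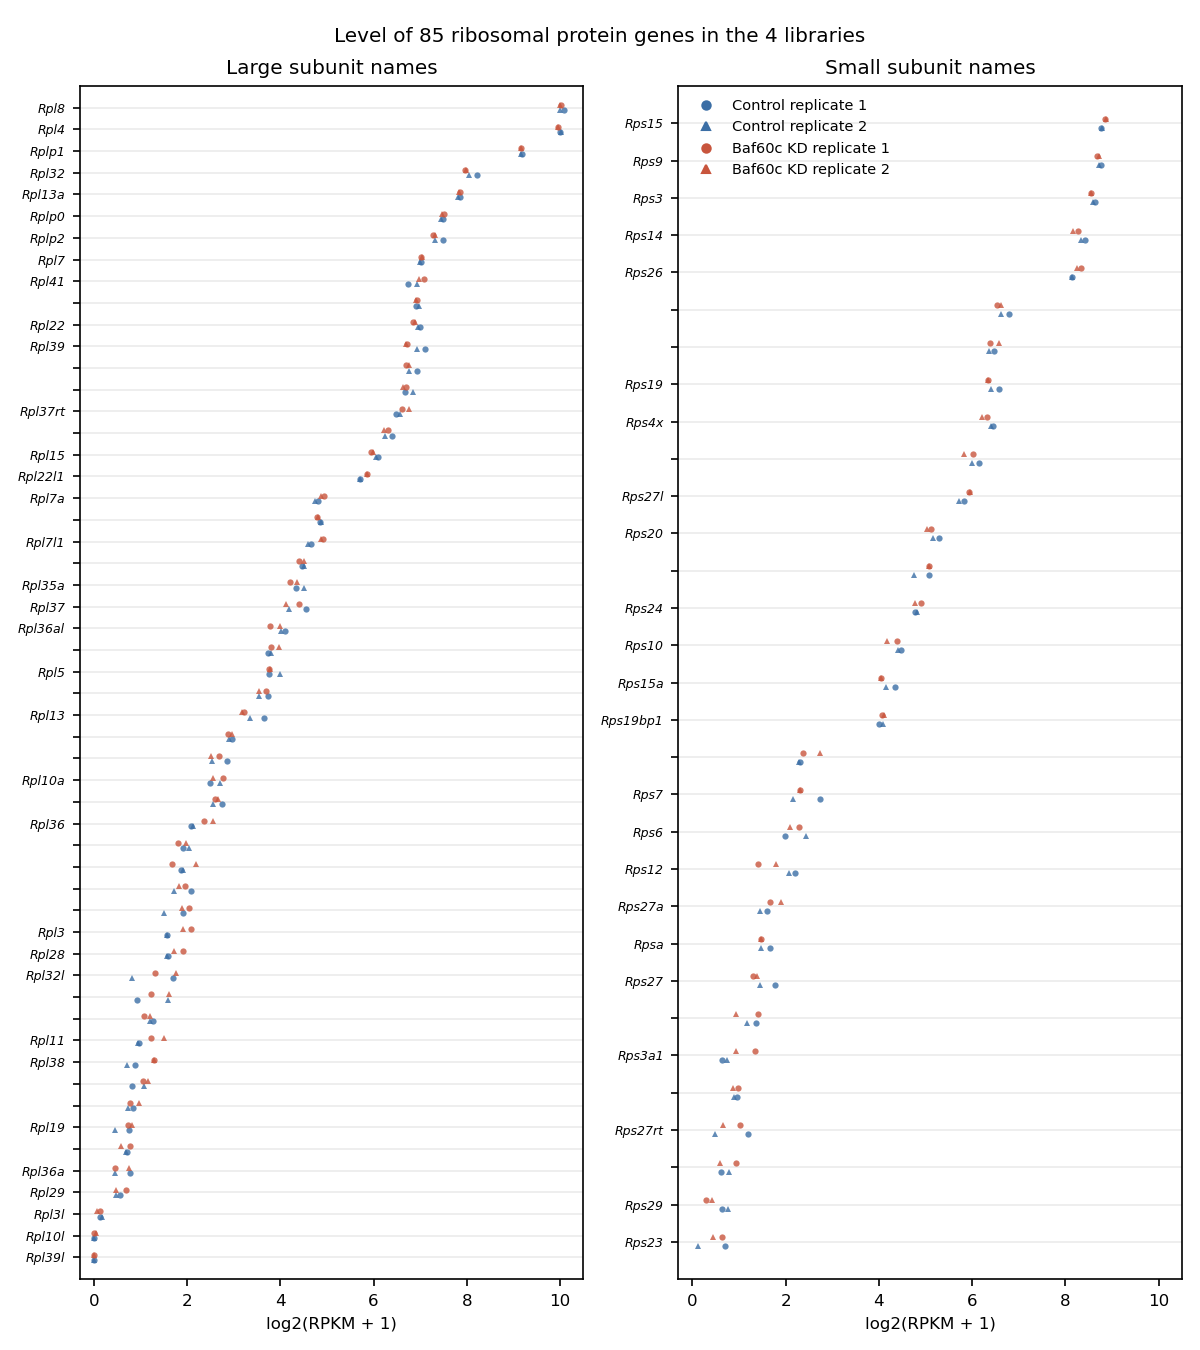
Level of 85 of the 88 genes in the 4 libraries, as log2(RPKM + 1), with large-subunit names on the left, small-subunit names on the right and genes ordered by their mean level. Names are given for genes described in the text. Blue marks control and red Baf60c KD, circles replicate 1 and triangles replicate 2, and the order runs from Rpl39l at 0 to Rpl8 at a mean of 1038 RPKM with the 4 libraries of nearly all genes close together.

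How much of a transcript can be told from the rest of the genome varied as widely as the levels did. For 83 of the 88 genes a coding transcript of the same symbol was found in GENCODE vM1, and every stretch of 50 bases in it (a 50-mer) was searched on both strands of the mouse genome NCBIM37, the build known as mm9. A median of 39.0% of the 50-mers of a ribosomal protein transcript matched nowhere else, against 98.9% for the 10407 tested genes with a transcript, and the share ran from 0.338% (Rps27) to 99.3% (Rpl39l). Fewer than 50% of the 50-mers were unique in 50 of the 83 genes (60.2%) and in 307 of the 10407 genes (2.95%). With stretches of 75 bases the medians were 49.1% and 99.1%. The transcript searched was the one nearest in length to the deposited one, and may differ from it. For Rps27 it had 345 bases against 571 in the deposited row, and for Rps6 878 against 1387. For 26 of the 88 genes, exons of the same symbol in GENCODE vM1 overlap those of another gene, 14 on the opposite strand. Genes whose symbol is missing there could not be scored. Some overlaps are with a small nucleolar RNA gene alone, as for Rpl10 and Rps3. Reads were counted on both strands, so those within an overlap cannot be assigned to either gene. The read length and the treatment of reads with several matches were not stated, so the effect on the counts was not tested.

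The difference is visible in single sequences, picked here by hand as examples. For 9 genes the coding 50-mer nearest the middle of the coding sequence is shown, written 5′ to 3′, in capitals where it has its only exact match in its own gene and in lower case where it also matches elsewhere.
Rpl8: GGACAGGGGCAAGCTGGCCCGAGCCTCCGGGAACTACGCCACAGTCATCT
Rpl4: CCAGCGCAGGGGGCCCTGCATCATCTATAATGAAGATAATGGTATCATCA
Rps3: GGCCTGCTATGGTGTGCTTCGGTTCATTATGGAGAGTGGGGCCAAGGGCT
Rps6: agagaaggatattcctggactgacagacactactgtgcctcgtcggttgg
Rpl3: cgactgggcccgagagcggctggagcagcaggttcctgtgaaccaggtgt
Rps12: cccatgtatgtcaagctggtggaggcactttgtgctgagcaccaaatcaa
Rpl11: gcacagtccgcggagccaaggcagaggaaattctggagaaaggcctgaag
Rpl38: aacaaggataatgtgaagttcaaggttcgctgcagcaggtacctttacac
Rpl19: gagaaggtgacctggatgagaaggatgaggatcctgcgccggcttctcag
The first 3 are from genes at the top of the range and had no other match (Rpl8 at chr15:76735330-76735379 on the plus strand, Rpl4 at chr9:64024807-64024856 on the plus strand, Rps3 at chr7:106628524-106628573 on the minus strand, all NCBIM37). The other 6 are from genes below 4 RPKM. Highly read genes with few unique 50-mers, such as Rps4x (mean 80.1 RPKM, 15.3%), are not among the 9. The Rps6 stretch (chr4:86501867-86501916, minus strand) and the Rpl3 stretch (chr15:79910853-79910902, minus strand) each had 1 further match, in an annotated pseudogene. That of Rpl38 (chr11:114533065-114533114, plus strand) had 3, all in annotated pseudogenes. The Rpl11 stretch (chr4:135607529-135607578, minus strand) had 3 further matches, 2 of them within the bounds of another protein-coding gene. The Rpl19 stretch (chr11:97890744-97890793, plus strand) had 5 on 5 chromosomes. The Rps12 stretch (chr10:23505718-23505767, minus strand) had 8 on 6 chromosomes, 5 of them in annotated pseudogenes.

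Genes with more unique 50-mers tended to stand higher. The median level was 2.73 RPKM for the 31 genes with under 25% unique 50-mers, 19.5 RPKM for the 19 genes from 25% to 50%, 27.2 RPKM for the 21 genes from 50% to 75% and 45.8 RPKM for the 12 genes above. Spearman's rho between level and unique share was 0.39 over the 83 genes, and 0.55 over 78 genes without Rpl3l, Rpl10l, Rpl39l, Rps19bp1 and Rpl7l1 (Pearson's r on the log2 scale 0.39 and 0.57), where all points share the same 4 libraries. The order is not strict, since Rplp1 reached 575 RPKM with 37.4% unique 50-mers, and over the 10407 tested genes rho was −0.14. The fold changes described next showed no such relation (rho −0.03 over 77 tested genes). Low levels given here for Rps6, Rpl19 or Rpl38 are levels of the counted reads, and their relation to the mRNA levels was not tested. Transcript length matters likewise, because the deposited transcripts of Rps15a (5127 bases) and Rps20 (3440 bases) are several times longer than the median of 687.5 bases over the 82 genes tested.

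**Figure D2:**
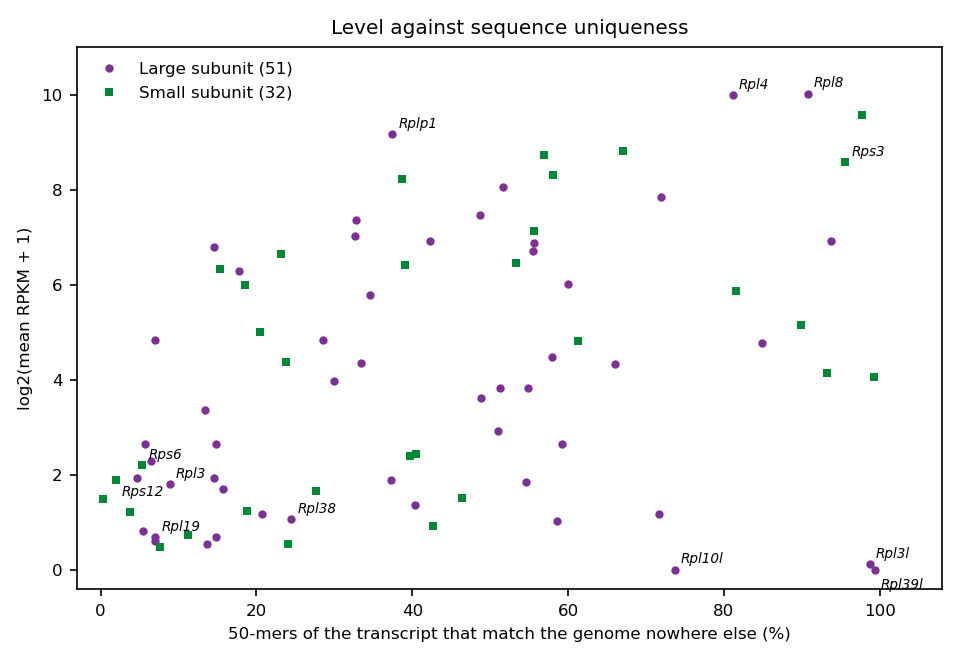
Mean level of 83 ribosomal protein genes, as log2(mean RPKM + 1), against the percentage of the 50-mers of their transcript that match the genome nowhere else, with large-subunit genes as circles and small-subunit genes as squares. Rpl8, Rpl4 and Rps3 lie at the upper right, Rps12, Rps6, Rpl3 and Rpl19 at the lower left, and the unique but nearly unread paralogs Rpl3l, Rpl10l and Rpl39l at the lower right.

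After Baf60c knockdown the ribosomal protein genes changed little. Of 82 genes whose mean reached the minimum of 0.5 RPKM, 16 rose, 15 fell and 51 did not pass the test (limma on log2(RPKM + 1), Benjamini-Hochberg adjusted p under 0.05 over 11371 genes). In all, 37.8% of them were called, against 54.3% of all genes tested, of which 36.1% rose and 18.2% fell. Without Rps19bp1 and Rpl7l1, which are not ribosomal proteins, 15 of 80 rose and 15 fell (37.5% called). The median log2 fold change of the 82 genes was −0.02 beside 0.07 for all genes, and the single values ran from −0.55 (Rps12) to 0.51 (Rpl38). On the log2(RPKM + 1) scale none changed by more than 2-fold, while 278 of the 11371 genes did. As plain ratios of mean RPKM, Rps3a1 and Rpl38, both with fewer than 40 reads in every library, stood close to 2-fold. The groups did not overlap for 40 of the 82 genes (48.8%), 17 higher and 23 lower in Baf60c KD, against 77.4% of all genes (49.6% higher, 27.8% lower). The shares called and without overlap also depend on the spread between replicates, which was wider in the 82 genes. The SD of the difference between the 2 controls on the log2(RPKM + 1) scale was 0.22 beside 0.11 for all genes. Between the 2 Baf60c KD libraries it was 0.18 beside 0.09. A mean of at least 100 reads was reached by 53 of the 82 genes, beside 9952 of the 11371. With median-ratio scaling, which lowers the median of all genes by 0.07, 6 genes rose and 30 fell beside 25.6% and 25.5% of all genes, and the median was −0.09. The voom fit to recovered reads called 13 higher and 19 lower beside 38.4% and 20.4% of all genes (58.8% in all). Among the 52 genes with a mean of 5 RPKM or more, 9 rose and 14 fell, beside 41.6% and 19.2% of all such genes. The 6 genes that did not pass the filter were Rpl29, Rps29, Rps23, Rpl3l, Rpl10l and Rpl39l, with at most 16 reads in any library. Rps19bp1, the Rps19-binding protein, stood at a control mean of 15.6 ± 0.758 and a knockdown mean of 15.9 ± 0.326 RPKM (SD, n = 2) and did not pass the test (0.03, limma adjusted p = 0.590).

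**Figure D3:**
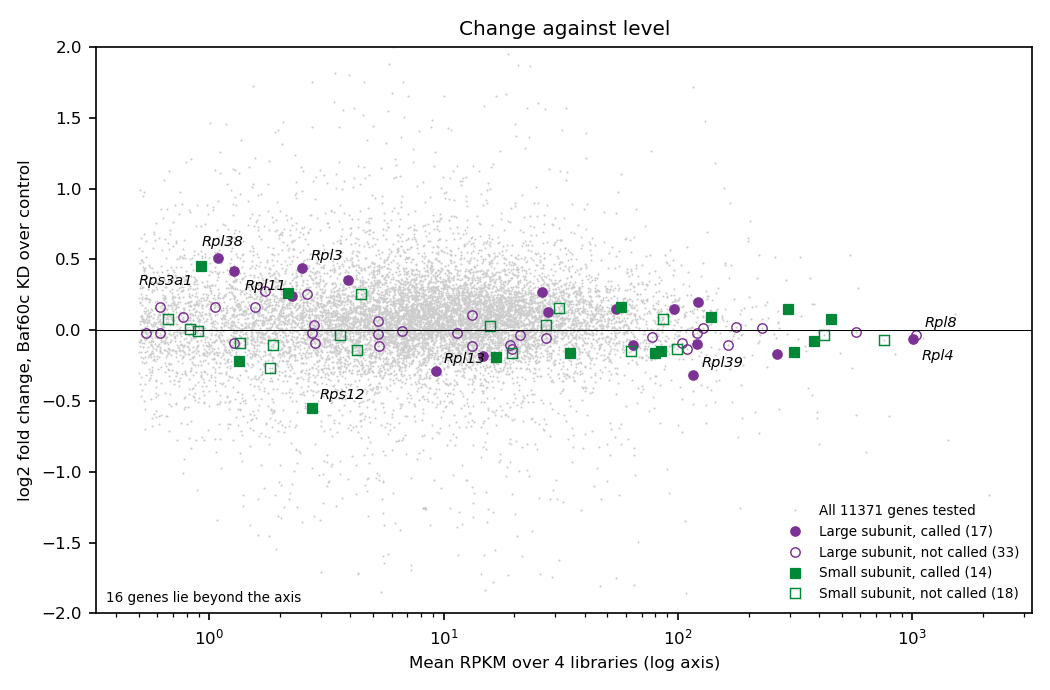
Log2 fold change of Baf60c KD over control on the log2(RPKM + 1) scale against mean RPKM on a log axis, for all 11371 genes tested (grey) and for the large-subunit (circles) and small-subunit genes (squares), filled where the adjusted p was under 0.05. The ribosomal protein genes lie between −0.55 and 0.51, the furthest from 0 are at low RPKM, and 16 genes of the table lie beyond the axis.

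Calls that held in each of the 4 fits with 1 library left out, where the lone library of a group is assumed to vary like the other group, were fewer, 8 of the 16 that rose and 2 of the 15 that fell. The 8 were Rpl3, Rpl7l1, Rpl11, Rpl22l1, Rpl36, Rpl38, Rps26 and Rps27l, and the 2 were Rpl32 and Rpl39. Under median-ratio scaling and in the voom fit as well, Rpl3, Rpl7l1, Rpl11 and Rpl38 stayed higher and Rpl32 and Rpl39 lower. How many calls over all genes held in the same fits was not counted. The numbers kept therefore cannot be read as a trait of the ribosomal protein genes. The controls moved the count of falls in opposite directions, since 9 genes fell and 17 rose without control replicate 1 (median 0.00), beside 17.1% and 35.2% of all genes, and 22 fell and 14 rose without control replicate 2 (median −0.04), beside 17.8% and 33.6%. In control replicate 1 the 82 genes stood a median of 0.05 above control replicate 2 on the log2(RPKM + 1) scale, with 57 of them higher, beside 0.01 for all genes.

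The clearest fall among well-counted genes was that of Rpl39, a very small protein in the wall of the exit tunnel (chromosome X, 34622515 to 34625397, minus strand, 3 exons). It had 136, 122, 104 and 102 RPKM in control 1, control 2, Baf60c KD 1 and Baf60c KD 2, from 1013 to 1354 reads. Both control libraries lay above both Baf60c KD libraries, and the group means were 129 ± 9.93 and 103 ± 1.39 RPKM (SD, n = 2), a log2 fold change of −0.32 ± 0.05 SE (limma adjusted p = 0.000430). Rpl32, a core large-subunit protein, had 298, 263, 247 and 251 RPKM, again without overlap (log2 fold change −0.17 ± 0.05 SE, limma adjusted p = 0.0179), and was not called when no filter on low genes was set (limma adjusted p = 0.0591). Rps4x, the X-linked small-subunit protein, had 85.8, 83.4, 78.4 and 72.6 RPKM (−0.16 ± 0.04 SE, limma adjusted p = 0.00587), and lost its call without Baf60c KD replicate 2 (−0.11, limma adjusted p = 0.0521). Rps15a, Rps20, Rps14 and Rps19 fell by 0.19, 0.16, 0.15 and 0.15 on the log2 scale, and each lost its call without control replicate 1.

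Rps12, a small-subunit protein that in Drosophila takes part in cell competition, gave the lowest value (chromosome 10, 23504990 to 23507015, minus strand, 6 exons). Its RPKM were 3.63, 3.20, 1.64 and 2.45, from 43, 36, 19 and 38 reads. The groups did not overlap in RPKM, and the log2 fold change was −0.55 ± 0.12 SE (limma adjusted p = 0.00421). In reads scaled to the library totals the ratio was 0.615 (95% exact interval 0.430 to 0.876, counting error only), and without control replicate 1 the value was −0.48 and not called (limma adjusted p = 0.0518). Rpl13 had 11.5, 9.12, 8.29 and 8.12 RPKM (−0.29 ± 0.09 SE, limma adjusted p = 0.0201) and stood highest in control replicate 1, without which it was at −0.14 (limma adjusted p = 0.0657). Rpl4 fell by 0.06 and Rps3 by 0.07 on the log2 scale, Rpl22 by 0.09 and Rpl15 by 0.10, and these 4 calls were also lost without some single library. Rpl8 was at −0.04 and not called, except without control replicate 2 (−0.07) and under median-ratio scaling (−0.11).

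Rpl3, a protein beside the peptidyl transferase centre, rose with more reads than Rpl38, Rps3a1, Rpl11 and Rpl36 (chromosome 15, 79908211 to 79913836, minus strand, 10 exons). It had 1.98, 1.95, 3.26 and 2.78 RPKM, from 62, 58, 100 and 114 reads. Both Baf60c KD libraries lay above both controls, with a log2 fold change of 0.44 ± 0.08 SE (limma adjusted p = 0.00109) and a read ratio of 1.52 (95% exact interval 1.21 to 1.92). Rpl38, which in mice is needed for translation of a set of Hox mRNAs, had 0.832, 0.626, 1.46 and 1.45 RPKM (chromosome 11, 114529862 to 114533645, plus strand). That is 7, 5, 12 and 16 reads, with a log2 fold change of 0.51 ± 0.08 SE (limma adjusted p = 0.000716) and a read ratio of 1.99 whose 95% exact interval, 0.980 to 4.30, includes no change. Rpl11, which binds Mdm2 when ribosome assembly fails, had 13, 12, 18 and 33 reads (0.42 ± 0.10 SE, limma adjusted p = 0.00538; ratio 1.74, 95% exact interval 1.06 to 2.93). Rpl36 had 3.22, 3.39, 4.17 and 4.84 RPKM (0.35 ± 0.07 SE, limma adjusted p = 0.00273) and was not called on the recovered reads (voom adjusted p = 0.106). The 50-mers of these genes were mostly not unique, with unique shares of 8.84% for Rpl3, 24.4% for Rpl38, 20.8% for Rpl11 and 6.48% for Rpl36. Rps3a1 had 12, 14, 33 and 26 reads (0.45 ± 0.13 SE, limma adjusted p = 0.0140) and was not called without Baf60c KD replicate 1 (0.25) or control replicate 1 (0.40).

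Other rises were smaller. Rps26, whose human counterpart is mutated in some families with Diamond-Blackfan anaemia, an inherited failure of red cell production, had 281, 280, 320 and 303 RPKM (log2 fold change 0.15 ± 0.03 SE, limma adjusted p = 0.00151). Rps15 (0.08), Rpl7a (0.13), Rpl41 (0.20) and Rpl37rt (0.15) were called as well. Rpl28 had 2.02, 1.95, 2.79 and 2.29 RPKM and was called at 0.24 (limma adjusted p = 0.0322), but not without Baf60c KD replicate 1 (0.14) or control replicate 2 (0.22). Under median-ratio scaling none of these 6 was called, and Rps15 was at 0.00. Of the 16 genes that rose, 7 had a mean under 100 reads, as had 2 of the 15 that fell. Among the 53 genes with a mean of at least 100 reads, 9 rose and 13 fell with a median of −0.04, beside 37.5% higher and 18.7% lower among all genes with that many reads. Among the 30 tested genes with at least 50% unique 50-mers, 4 rose and 9 fell with a median of −0.05, beside 36.4% and 18.8% of all genes with such a share (both sets chosen after the values were seen).

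Members with a role known outside protein synthesis or in inherited disease were followed whatever their change. The stalk proteins that recruit elongation factors did not pass the test, with Rplp0 at 178, 173, 180 and 176 RPKM (0.02), Rplp1 at 581, 574, 570 and 574 RPKM (−0.01) and Rplp2 at 179, 159, 154 and 159 RPKM (−0.11). Their groups overlapped in each case. Rplp2 was called lower in the voom fit (voom adjusted p = 0.0208), under median-ratio scaling (−0.19) and without control replicate 2 (−0.19) or Baf60c KD replicate 2 (−0.13), and Rplp1 under median-ratio scaling (−0.09). Of 8 genes followed because their human counterparts are mutated in Diamond-Blackfan anaemia, Rpl11 and Rps26 rose and Rps19 fell. Rpl5, Rpl35a, Rps7, Rps10 and Rps24 did not pass the test. For comparison, 37.8% of the 82 ribosomal protein genes tested and 54.3% of all genes were called. Rps27 (−0.27 ± 0.10 SE, limma adjusted p = 0.0503) and Rps10 (−0.16 ± 0.06 SE, limma adjusted p = 0.0519) lay just short of the threshold. Both were called lower under median-ratio scaling (−0.32 and −0.24), Rps27 also without control replicate 2 (−0.43) or Baf60c KD replicate 2 (−0.31) and Rps10 without Baf60c KD replicate 1 (−0.26). Rpl5, which joins Rpl11 and the 5S ribosomal RNA in the particle that binds Mdm2, had 12.6, 14.9, 12.5 and 12.7 RPKM (−0.11 ± 0.07 SE, limma adjusted p = 0.194), and was called lower without control replicate 1 (−0.22) but at 0.00 without control replicate 2. Rps7 had 5.65, 3.48, 3.98 and 3.94 RPKM (−0.14, limma adjusted p = 0.462), with control replicate 1 far above the rest, and without control replicate 2 it was called lower (−0.42, limma adjusted p = 0.000297), while without control replicate 1 it was at 0.15 and not called. Rpl35a was at −0.13, called lower without control replicate 1 (−0.22) or Baf60c KD replicate 2 (−0.21) and under median-ratio scaling (−0.21), and Rps24 was at 0.03. Rps27a, which is made as a fusion with ubiquitin, had 38, 31, 40 and 68 reads and rose (0.27 ± 0.09 SE, limma adjusted p = 0.0379), a call lost without control replicate 2 (0.19) or Baf60c KD replicate 2 (0.14), with the voom fit and with median-ratio scaling. Rps6 (−0.03), Rpsa, also known as the laminin receptor (−0.11), Rpl10a (0.06) and Rpl13a, which silences inflammatory mRNAs in human monocytes (0.01), did not pass the test, although Rps6 was called lower without control replicate 1 (−0.26) and was at 0.20 and not called without control replicate 2.

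The large and the small subunit gave close median changes. Among large-subunit names 10 of 50 tested genes rose and 7 fell (34.0% called, beside 54.3% of all genes, 36.1% higher and 18.2% lower), with a median log2 fold change of −0.02. Among small-subunit names 6 of 32 rose and 8 fell (43.8% called), with a median of −0.05. The groups did not overlap for 20 of the 50 large-subunit and 20 of the 32 small-subunit genes, beside 77.4% of all genes. This difference between the subunits was not tested. Summed RPKM of large-subunit genes was 1.41 and 1.44 times that of small-subunit genes in control and 1.41 and 1.42 times in Baf60c KD, so that the ranges overlapped. The 88 genes together took 1.33% and 1.30% of the reads on kept transcripts in control and 1.26% and 1.25% in Baf60c KD, without overlap and with a difference of means of −0.06 percentage points. In summed RPKM these libraries held 8467 and 8185 against 8151 and 8109. The distance between the 2 controls in summed RPKM was larger than that between control replicate 2 and either Baf60c KD library.

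**Figure D4:**
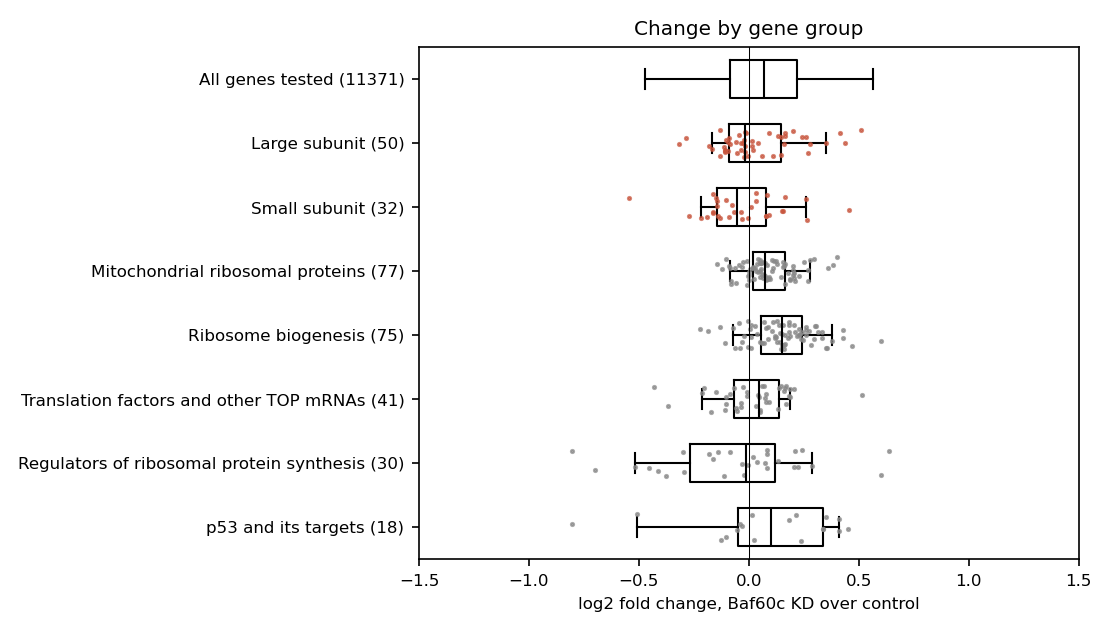
Log2 fold change of Baf60c KD over control for all genes tested and for each gene group, with the number tested in parentheses. Boxes span the quartiles with the median as a line, whiskers the 5th to the 95th percentile, and points are single genes. The medians of the large (−0.02) and small subunit (−0.05) lie left of that of all genes (0.07), and that of ribosome biogenesis (0.15) to the right.

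Expressed copies were compared with their parent genes by level per length. Of 12 pairs listed, 7 had the copy in the table. Rpl22l1, the copy of Rpl22, rose while Rpl22 fell. Rpl22l1 had 51.1, 51.6, 57.0 and 56.9 RPKM (log2 fold change 0.15 ± 0.03 SE, limma adjusted p = 0.00264), and Rpl22 had 126, 122, 115 and 117 RPKM (−0.09 ± 0.03 SE, limma adjusted p = 0.0174). The share of Rpl22l1 in the pair was 28.9% and 29.7% in control and 33.2% and 32.7% in Baf60c KD, without overlap. The kept Rpl22 row is a RefSeq non-coding transcript of 2352 bases, and the shares depend on this length. With the Rpl22 transcript of highest mean RPKM the log2 fold change was −0.10 (limma adjusted p = 0.0153). Under median-ratio scaling Rpl22l1 was at 0.07 and not called (limma adjusted p = 0.0801), and Rpl22 lost its call without control replicate 1 (−0.07) or Baf60c KD replicate 1 (−0.08). Rpl7l1, the assembly factor, rose from 24.1 and 23.3 to 29.2 and 28.2 RPKM (0.27 ± 0.04 SE, limma adjusted p = 0.000325) beside Rpl7 at 129, 127, 128 and 130 RPKM (0.02), and its share of the pair went from 15.7% and 15.5% to 18.6% and 17.8%.

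In other pairs the copy gave most of the signal. Rps27l, a p53 target in human cells, had 56.0, 51.5, 59.7 and 61.1 RPKM (0.17 ± 0.04 SE, limma adjusted p = 0.00739), and made up 95.9%, 96.7%, 97.6% and 97.4% of the pair with Rps27. Rpl36al had 16.2, 15.2, 12.7 and 14.8 RPKM (−0.18 ± 0.07 SE, limma adjusted p = 0.0453), a call kept in 1 of the 4 fits without a library, and gave 95.6% to 97.6% of the pair with Rpl36a, which had 4 to 10 reads. These parents with low readings had few unique 50-mers, 0.338% in Rps27 and 6.91% in Rpl36a. Their copies had 81.6% in Rps27l and 30.0% in Rpl36al. The Rps27 share comes from a transcript of 345 bases, while the deposited row, a RefSeq non-coding transcript, has 571 bases. The muscle and testis copies were almost unread. Rpl3l, the muscle form, had 3, 4, 3 and 2 reads although 98.7% of its 50-mers are unique. Rpl10l had a single read in Baf60c KD 2, and Rpl39l had none in any library, which allows up to 3 reads in each. The Rpl37rt row, a retrocopy by its symbol, had 88.6, 94.1, 96.0 and 107 RPKM against 22.5, 17.3, 20.2 and 16.4 RPKM for Rpl37. The Rps27rt row, with only 10, 3, 8 and 6 reads, gave 18.7% to 41.5% of its pair with Rps27. The Rpl32l row gave 0.292% to 0.946% of its pair with Rpl32. No unique share was scored for Rpl37rt, Rps27rt or Rpl32l, so how far their reads can be told from those of the parent was not tested. Rpl37 (−0.11) and Rpl32l (0.28) did not pass the test, but without Baf60c KD replicate 1 Rpl37 was called lower (−0.25) and Rpl32l higher (0.50), the latter also without control replicate 1 (0.72).

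The coding sequences of 3 such pairs show how far parent and copy can be told apart. The first 156 bases are given, capitals marking the bases at which the pair differs.
Rps27: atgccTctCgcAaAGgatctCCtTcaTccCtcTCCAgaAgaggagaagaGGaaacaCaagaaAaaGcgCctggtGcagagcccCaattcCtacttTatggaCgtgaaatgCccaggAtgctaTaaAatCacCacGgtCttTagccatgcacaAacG
Rps27l: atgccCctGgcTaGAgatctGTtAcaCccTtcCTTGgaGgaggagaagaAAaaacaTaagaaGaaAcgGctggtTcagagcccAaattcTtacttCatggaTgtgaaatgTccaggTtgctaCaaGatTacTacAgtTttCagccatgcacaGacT
Rpl36a: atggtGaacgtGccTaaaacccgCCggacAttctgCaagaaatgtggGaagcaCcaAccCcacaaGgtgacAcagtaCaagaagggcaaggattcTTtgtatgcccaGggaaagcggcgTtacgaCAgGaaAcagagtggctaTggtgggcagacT
Rpl36al: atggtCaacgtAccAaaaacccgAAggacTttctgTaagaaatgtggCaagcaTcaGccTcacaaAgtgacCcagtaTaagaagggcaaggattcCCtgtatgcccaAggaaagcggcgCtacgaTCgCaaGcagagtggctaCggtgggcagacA
Rpl39: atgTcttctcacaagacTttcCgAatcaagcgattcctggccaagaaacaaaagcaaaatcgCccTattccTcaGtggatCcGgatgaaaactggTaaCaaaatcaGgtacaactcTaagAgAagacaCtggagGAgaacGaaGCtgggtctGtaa
Rpl39l: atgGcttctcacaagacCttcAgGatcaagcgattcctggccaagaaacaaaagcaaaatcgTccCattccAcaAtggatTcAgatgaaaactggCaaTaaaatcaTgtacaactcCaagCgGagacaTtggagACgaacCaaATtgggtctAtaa
Rps27 and Rps27l differ at 61 of 255 coding bases (76.1% identity), with at most 11 identical bases in a row. Rpl36a and Rpl36al differ at 39 of 321 bases (87.9% identity) with at most 24 in a row. Rpl39 and Rpl39l differ at 23 of 156 bases (85.3% identity) with at most 38 in a row. No stretch of 50 coding bases is therefore shared within any of these pairs. In NCBIM37 Rps27 lies on chromosome 3 and Rps27l on chromosome 9, Rpl36a on X and Rpl36al on 12, and Rpl39 on X and Rpl39l on 16.

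**Figure D5:**
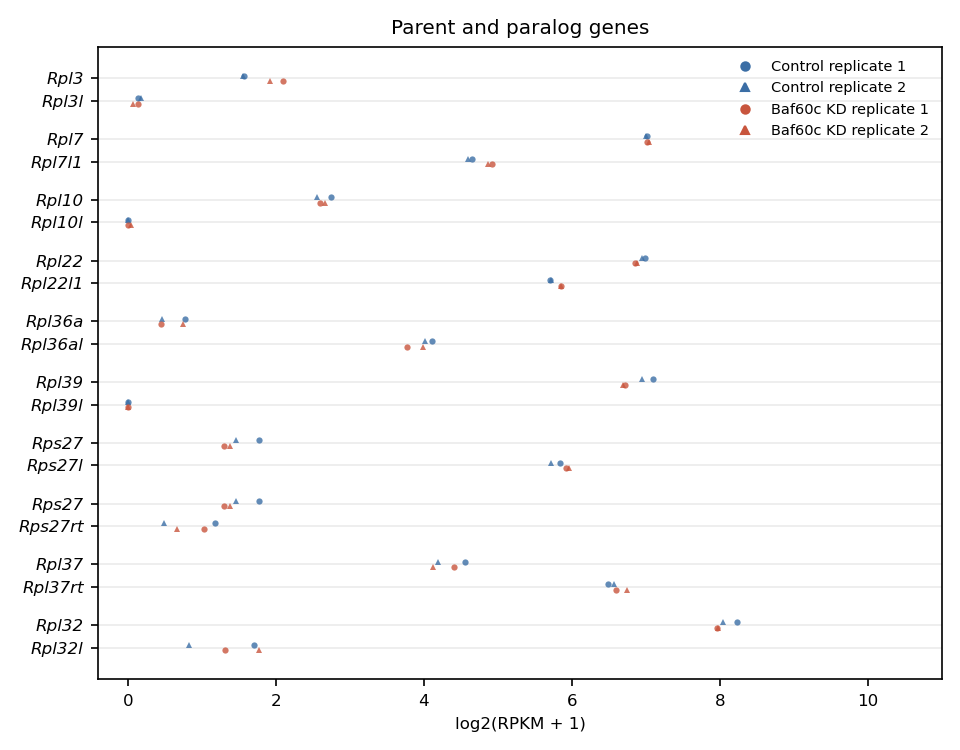
Level of parent genes and their copies, as log2(RPKM + 1), in the 4 libraries. Blue marks control and red Baf60c KD, circles replicate 1 and triangles replicate 2. Rpl22l1 and Rpl7l1 lie below their parents and shift to the right in Baf60c KD, Rps27l, Rpl36al and Rpl37rt lie above theirs, and Rpl3l, Rpl10l and Rpl39l lie at or near 0.

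The pyrimidine run of TOP mRNAs was looked for at the annotated starts. RefSeq promoters of GRCm38.p6 were matched by symbol for 68 of the 88 genes, and a C followed by 4 bases that are each C or T, on the transcribed strand alone, was searched within 5 bases of the start, longer runs counted once. It was found in 31 of 68 ribosomal protein genes (45.6%) and in 2143 of 8899 tested genes (24.1%), and exactly at the start in 15 (22.1%) and 280 (3.15%). Examples from genes that rose, fell or stayed are given with 10 bases before and 20 from the annotated start on, the run in capitals.
Rpl38: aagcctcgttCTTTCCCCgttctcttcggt
Rps26: gcaagccgccggatCCTCTTTCgagtcttg
Rpl15: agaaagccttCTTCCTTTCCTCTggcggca
Rps15a: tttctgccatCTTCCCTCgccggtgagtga
Rps6: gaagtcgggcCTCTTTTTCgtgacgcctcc
These lie in GRCm38.p6 at chr11:114668570-114668599 (plus strand), chr10:128626487-128626516 (minus), chr14:18270967-18270996 (minus), chr7:118116128-118116157 (minus) and chr4:86857348-86857377 (minus). Of the 30 tested genes with such a run 6 rose and 3 fell, with a median log2 fold change of 0.01, and of 34 without it 6 rose and 8 fell, with a median of −0.02, beside 36.1% higher and 18.2% lower among all genes. A run in these letters is a description of the annotated start, not a mapped cap site.

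Other lists were counted beside all genes tested, of which 54.3% were called, 36.1% higher and 18.2% lower, with a median of 0.07. Of 75 tested ribosome biogenesis factors, 47 rose and 2 fell (65.3% called), with a median log2 fold change of 0.15. The largest rises were those of Nop10 and Gar1, partners of the pseudouridine synthase in H/ACA particles (0.60 and 0.43), and of Rrp1b (0.47), while Nmd3, the export adaptor of the large subunit, fell by 0.22 and Utp18 by 0.18. Of 77 mitochondrial ribosomal proteins, 24 rose and 2 fell (33.8% called, a smaller share than of all genes, with the same median of 0.07), led by Mrps12 (0.40), Mrpl34 (0.38) and Mrps6 (0.36), with Mrpl37 (−0.15) and Mrpl38 (−0.12) lower. Of 41 translation factors and other TOP mRNAs, 15 rose and 10 fell (61.0% called, median 0.05), near the shares of all genes. Eif1ax, Naca and Eif3e fell by 0.43, 0.37 and 0.21, and Vim, an intermediate filament gene with a TOP mRNA, Eif4a1 and Hnrnpa1 rose by 0.52, 0.21 and 0.19. These lists share the scaling of the libraries with the ribosomal proteins, and the differences between their medians were not tested.

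Regulators of ribosomal protein synthesis went in both directions, 8 of 30 higher and 11 lower (63.3% called, beside 36.1% higher and 18.2% lower among all genes). The Myc family members Mycn and Myc, activators of ribosomal protein and biogenesis genes, rose. Mycn had 31.6, 30.1, 46.9 and 47.6 RPKM (log2 fold change 0.60 ± 0.04 SE, limma adjusted p = 1.00e-06), and Myc 0.593, 0.587, 1.49 and 1.46 RPKM (0.64 ± 0.07 SE, limma adjusted p = 8.06e-05). The mTORC1 inhibitors Sesn2 and Ddit4 and the kinase gene Rps6ka3 fell by 0.81, 0.70 and 0.52 on the log2 scale, and Tsc1 rose by 0.29. Larp1, which binds TOP mRNAs, had 35.3, 35.2, 34.3 and 35.1 RPKM (−0.02, limma adjusted p = 0.642). Of 18 genes of the p53 list, 9 rose and 3 fell (66.7% called, median 0.10), and Sesn2 stands on both lists. Of the ribosomal proteins without an Rpl or Rps name, Rack1 fell from 1075 and 1033 to 1000 and 992 RPKM (−0.08 ± 0.02 SE, limma adjusted p = 0.00946), and Fau, also made as a fusion with a ubiquitin-like protein, was at 0.22 and did not pass the test (limma adjusted p = 0.0880).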

How the data were processed

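RNA-seq was read from 4 libraries, control and Baf60c KD CPCs (2 each). The authors aligned reads with STAR to mm9, counted them over RefSeq exons with HOMER on both strands, and deposited RPKM computed with edgeR. Tool versions are not given in the sources used here. The deposited table of 35707 transcripts also holds the authors' DESeq2 columns (mean signal, log2 fold change and p-values), which were not used. It consists of 2 blocks of 31507 and 4200 rows that were scaled separately. Reads recovered as RPKM × length × total were whole for all values (tolerance 0.001).

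For each symbol the transcript with most reads was kept. Values were tested as log2(RPKM + 1) with limma 3.58.1 (R 4.3.3, trend and robust), for genes with a mean of at least 0.5 RPKM and with Benjamini-Hochberg adjustment over all of them. Fold changes on this scale understate changes of low genes. The test was checked on simulated data. Intervals of read ratios are 95% exact and cover counting error only. Other computations used Python 3.11.15, numpy 2.4.6, pandas 2.3.3 and scipy 1.17.1.

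Genes named were Smarcd3, the 8 called genes with the largest rise and the 8 with the largest fall, copies with their parents, genes with known roles, genes below the filter and the 2 highest, and of each other list the 3 largest called changes in each direction. Rpl4, Rps3, Rps14, Rps15, Rpl15, Rpl7a, Rps20 and Rpl41, the pairs with Rpl37rt, Rps27rt and Rpl32l, and other genes named for their level were added after their values were seen. Some genes that the rules name are not reported here. The members and lists were chosen with earlier results of these data known. Alternatives were other scalings, filters, pseudocounts, transcripts and tests, a replicate block, and leaving out each library.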

Additional observations from a re-analysis of the deposited data

How the results depend on the processing

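Counts of ribosomal protein genes depended on the scaling chosen. Scaling to reads outside these genes left them at 16 higher and 15 lower, beside 4084 and 2077 of all genes. Median-ratio factors gave 6 higher and 30 lower in place of 16 and 15, with medians of −0.090 for all, −0.075 for the large and −0.12 for the small subunit, and turned Rpl13a from 0.01 to −0.064 (limma adjusted p = 0.0390). They also turned genes called in neither fit, Rplp0 to −0.058, Rpl7 to −0.063, Rps24 to −0.042, Rps19bp1 to −0.043, Rps27rt to −0.023 and Rpl10a to −0.0047. A mean of at least 5 RPKM gave 9 higher, beside 3065 of all 7373 such genes. No filter gave 11 higher and 9 lower of 87 ribosomal protein genes, beside 4068 higher and 2135 lower in the whole table. Testing every transcript gave 6745 higher and 3572 lower in the whole table. In 2 alternatives chosen after seeing the data, genes with at least 50% unique 50-mers gave 4 higher and 9 lower with a large-subunit median of −0.075, and genes with at least 100 reads gave 9 higher. Leaving out each library gave 14 to 19 higher and 9 to 22 lower, with medians from −0.04 to 0.00 for all, −0.019 to 0.030 for the large and −0.11 to −0.012 for the small subunit. Without single libraries the sign also turned for genes not called with all 4 libraries, whose values ran from −0.046 to 0.17 for Rpl10a, −0.036 to 0.10 for Rps24, −0.12 to 0.066 for Rpl10, −0.18 to 0.14 for Rpl36a, −0.34 to 0.36 for Rps27rt, −0.26 to 0.20 for Rps6, −0.29 to 0.075 for Rpl37, −0.42 to 0.15 for Rps7, −0.015 to 0.078 for Rps19bp1, −0.073 to 0.0023 for Rpl8, −0.22 to 0.00061 for Rpl5, −0.00056 to 0.031 for Rpl13a and −0.16 to 0.72 for Rpl32l. Of these, single fits called Rpl37, Rpl5, Rps6, Rps7, Rpl8 and Rpl32l. The cause of these changes was not tested. A fit with replicate number as a block gave 18 higher and 20 lower, beside 4093 higher and 2073 lower of all 11371 genes. The deviations of same-numbered libraries correlated at 0.024, so the replicate numbers were not taken to pair the libraries. For single named genes, 614 values under alternatives kept their direction and side of the threshold, 67 lost and 33 gained a call and 26 turned in sign, 1 of them (Rpl13a) with a call. Genes under 100 reads (35 of 88) are limited by depth, and with 2 libraries a group small changes can be missed.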

Other observations

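The 6 processed-pseudogene names left out of the family were not all low. The Rpl14-ps1 row had 285, 265, 260 and 270 RPKM in control 1, control 2, Baf60c KD 1 and Baf60c KD 2, and the groups overlapped. It lies in the separately scaled second block. The Rpl34-ps1 row had 2.33, 1.56, 2.82 and 2.03 RPKM, the Rps19-ps3 row 0.703, 0.952, 1.03 and 1.38 RPKM and the Rps15a-ps4 row 0.981, 0.646, 0.752 and 0.608 RPKM. Rps15a-ps6 and Rpl31-ps12 had at most 2 reads in any library.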
